A study of Bos taurus with 10 samples.

Results

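Sperm of bulls with low bull fertility was set against sperm of bulls with low associated daughter fertility, by the tRNA-derived small RNAs (tsRNAs) each group held. The samples were chosen by their titles, "low BFI" for the bull fertility group and "low DFI" for the daughter fertility group, and were 6 of the 10 samples of the series, 3 in each group, with no sample in both. All 6 were sperm samples of Bos taurus, and the labels name no treatment. The 3 low bull fertility samples carry no daughter fertility label. Of the 3 low daughter fertility samples 1 is labelled high for bull fertility, and the others carry no bull fertility label. The groups are therefore low on 2 different traits and are not a low group and its control. The labels used here give no age or breed, and do not say that each sample came from its own bull. The tsRNA table holds no marker of a cell type, so the sperm label was not checked against one. In such bulk libraries fewer cells of a type and less RNA per cell cannot be told apart.

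Transfer RNAs carry amino acids to the ribosome, and nucleases such as angiogenin cut them into shorter RNAs. Fragments of the 5′ end are among the most abundant small RNAs of mammalian sperm, and in mice sperm takes up much of its tRNA fragment load during passage through the epididymis. In mice such fragments have been studied as carriers of paternal effects to the offspring, and the 5′ fragment of tRNA-Gly-GCC has been tied to genes that neighbour endogenous retroviruses in early embryos. The table names each entry by isotype (the amino acid) and anticodon, and counts fragments of the 5′ end, of the 3′ end, of neither end, whole tRNAs, antisense reads, precursors and precursor trailers apart. Entries with the prefix tRX are tRNA-like loci of lower confidence.

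The authors' table gives 1 normalized value per group and row, so no spread between the 3 samples of a group can be had and no difference below was tested. Each value above 0 could be written as a number of whole reads from 1 library of its group, and was taken as the middle 1 of 3 libraries. The lowest or highest of 3 libraries would also be a number of whole reads, and these were not told apart. A read counted for 0.528, 0.893 or 1.06 normalized counts in the low bull fertility group, against 0.453, 0.722 or 1.11 in the low daughter fertility group. The library with a step of 0.722 is the one labelled high bull and low daughter fertility, because the high bull fertility column has the same step. It supplied the low daughter fertility value in 316 of 696 tRNA rows and 1567 of 3040 tRX rows with a mean of both groups of at least 10. Ratios are low bull over low daughter fertility, on the log2(value + 1) scale. Intervals are exact 95% intervals of the reads behind the 2 values, and cover counting error only. They were taken without the added 1, so for values of few reads they are not centred on the printed ratio. As a scale for the error between samples, the authors' deposited table gives a fold change and p for each of these groups against its own high fertility group, which imply a standard error with a median of 0.77 log2 units (range 0.59 to 0.96) over the 104 tRNA families with a mean of at least 100 in the bull fertility comparison. Of 151 tRNA families described below, 27 had a ratio larger than the larger of their 2 implied standard errors, and 0 had one larger than 2 of them. These errors belong to other comparisons, and serve as a scale and not as a test.

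Fragments of tRNAs made up a somewhat larger part of the signal with low bull fertility and tRNA-like entries a smaller part. The tRNA entries summed to 65.8% of all normalized values with low bull fertility and 62.7% with low daughter fertility, and the tRX entries to 34.2% and 37.3% in the same groups. The tRX 5′ fragments alone differed by more than this gap, with 28.7% for low bull and 32.4% for low daughter fertility. The tRX 3′, neither-end and antisense shares were slightly larger with low bull fertility. They were 1.09%, 3.34% and 0.997% there, against 0.891%, 3.09% and 0.890% with low daughter fertility. Within the tRNA entries the fragment types stood in nearly the same proportions. The 3′ fragments held 3.59% with low bull and 3.45% with low daughter fertility, and fragments of neither end 3.71% and 3.51% in the same groups. Leaving the tRX entries out of the total, the tRNA 5′ share differed by -0.0562 percentage points, low bull minus low daughter fertility. Whole tRNAs made up 0.0774% of the low bull and 0.0637% of the low daughter fertility signal. The rows that overlap precursors were an exception to these proportions. Partial precursors of tRNA entries summed to 805 normalized counts with low bull fertility and 319 with low daughter fertility, a ratio of 2.52. Trailers, the 3′ leftovers of precursor processing, were listed at 0 in both groups for tRNA entries, and summed to 147 with low bull and 96.8 with low daughter fertility for tRX entries. Sums over rows can hold the same reads more than once, because near-identical entries are listed apart.

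**Figure D1:**
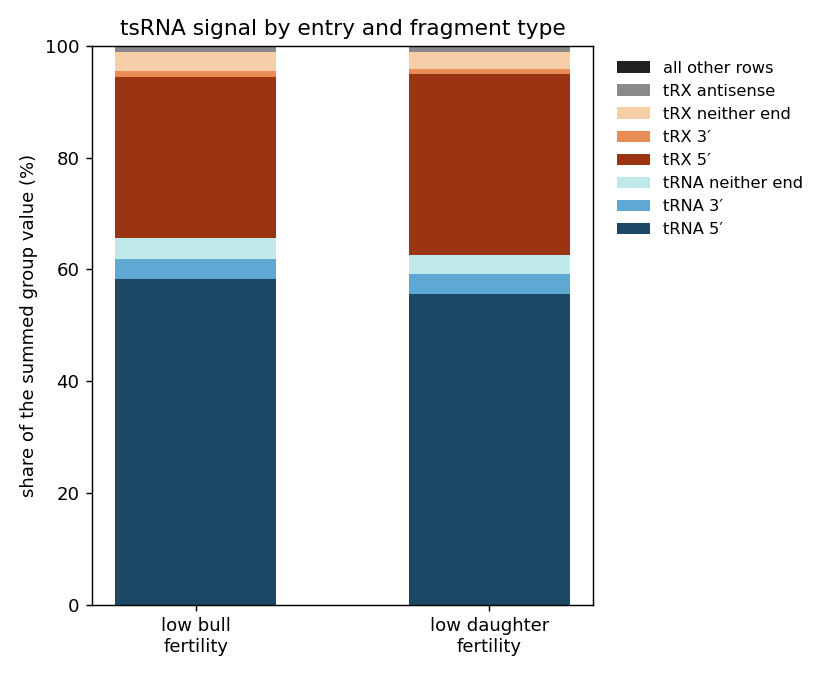
Share of the summed normalized group value (%, vertical axis) by entry prefix and fragment type, for the low bull and the low daughter fertility group, 1 value per group and no error. The dark blue tRNA 5′ segment is 58.4% with low bull and 55.7% with low daughter fertility, and the dark red tRX 5′ segment 28.7% and 32.4% in the same groups.

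Fewer rows had a group value above 0 with low bull fertility. If a value is the middle 1 of 3 libraries, as was assumed, a 0 does not exclude reads in 1 library of that group. Of 184397 rows, 21072 were above 0 in both groups, 7181 with low bull fertility alone and 17462 with low daughter fertility alone. Rows above 0 in 1 group alone had low values there, with a median of 0.893 normalized counts for those of low bull and 0.722 for those of low daughter fertility. These medians are the worth of 1 read in a library of each group. Reads per normalized count ran from 0.945 to 1.89 in the low bull and from 0.903 to 2.21 in the low daughter fertility libraries, and the part of depth in these counts was not tested. The largest of them were tRNA-like entries. tRX-Trp-NNN-7341, fragments of neither end, stood at 67.9 with low bull fertility (76 reads) and was listed at 0 with low daughter fertility. Further entries at 0 with low daughter fertility were the 5′ fragment of tRX-Cys-NNN-101968 at 17.9 and the 3′ fragment of tRX-Arg-NNN-2756 at 15.9, the last sharing its values with 2 other rows (3 in all). At 0 with low bull fertility were the 3′ fragments of tRX-Gly-NNN-3794 at 49.8 and tRX-Und-NNN-837 at 49.4, and tRX-Cys-NNN-55164, neither end, at 38.9 with low daughter fertility.

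To compare fragments without counting near-identical rows many times, tRNA entries were joined into families of isotype, anticodon and fragment type, each represented by its most abundant row. Of 151 families with a mean of at least 10, 10 were at least 2-fold higher and 6 at least 2-fold lower with low bull fertility, and 103 lay within 1.5-fold. These are 6.62% and 3.97% of the families, against 13.9% and 8.32% of all 3736 rows past that same mean. The family median was -0.10 log2 units and that of all rows 0.07. The summed values of the groups themselves differed by -0.16, so the family median turned to 0.059 when both groups were scaled to the same total, and 12 families were then higher and 3 lower, 80.0% higher among those past 2-fold against 62.5% as deposited. The counting interval lay clear of 0 in 101 of the 151 families. The families also split by which low bull fertility library gave the value. Of 77 with a value from the deepest, 8 were at least 2-fold higher and 0 lower, and of 42 from the shallowest 0 were higher and 3 lower. The part of the libraries in these calls was not tested.

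**Figure D2:**
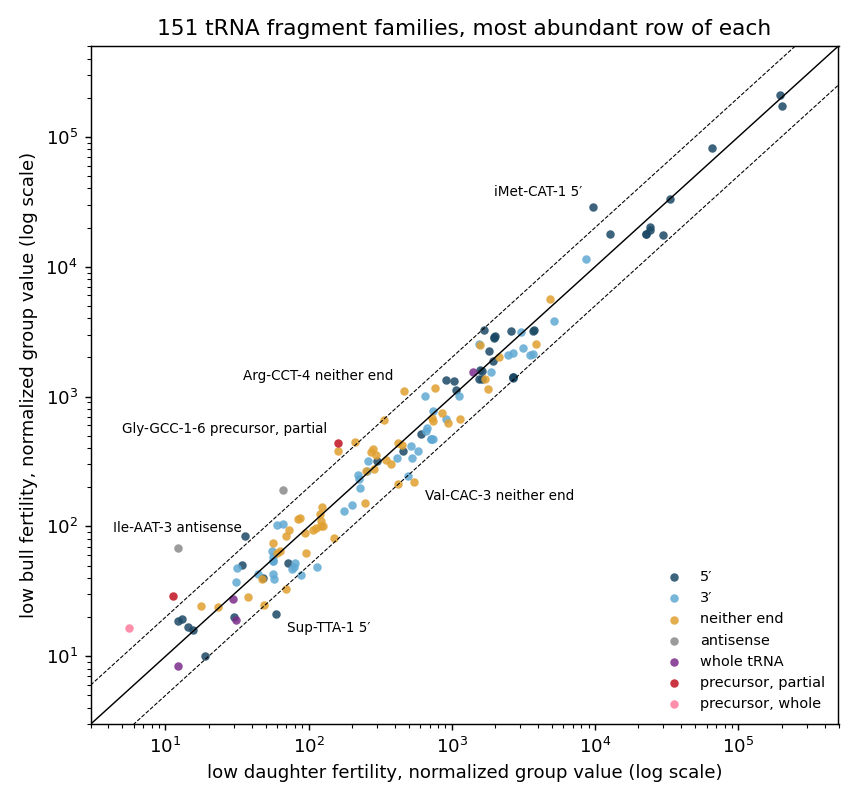
Normalized group value with low bull fertility (vertical, log scale) against that with low daughter fertility (horizontal, log scale) for 151 tRNA fragment families, each by its most abundant row and coloured by fragment type. The solid line marks equal values and the dashed lines 2-fold. The 5′ fragment of the initiator tRNA, at 28743 with low bull and 9703 with low daughter fertility, is the most abundant family beyond a dashed line.

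The initiator tRNA, which starts every protein chain with methionine, stood furthest apart among the abundant fragments. The 5′ fragment of tRNA-iMet-CAT-1 had a group value of 28743 with low bull fertility (54392 reads) and 9703 with low daughter fertility (21428 reads). It was 2.96-fold higher with low bull fertility, a log2 ratio of 1.57 (interval 1.54 to 1.59), where the implied standard error of this row in the authors' deposited table was 0.85. Both values came from the deepest library of their group. The authors' log2 fold change of high over low bull fertility for this row was -1.51, in the direction of the group values (9421 and 28743). Their fold change of high over low daughter fertility was -0.49, against the direction of the group values (13256 and 9703). The reason was not tested. All 3 initiator 5′ rows with a mean of at least 10 were higher with low bull than with low daughter fertility, by 0.87 to 1.57. Initiator fragments of neither end had values of 383 with low bull and 161 with low daughter fertility, a log2 ratio of 1.25 (1.07 to 1.44). Here too the authors' fold change of high over low daughter fertility, -0.77, ran against the group values (269 and 161). The 3′ fragment was scarce, at 43.3 with low bull and 44.0 with low daughter fertility, a ratio of -0.02 (-0.52 to 0.48), or 0.13 when the totals are made equal. tRNA-like initiator entries summed to 1883 with low bull and 828 with low daughter fertility, 2.27 times as much, though they may draw on the same reads. The elongator tRNA-Met-CAT, which inserts methionine inside proteins, lay the other way in its main fragment, though the difference between them was not tested. Its 3′ fragment, the most abundant elongator family, had 2144 with low bull and 3708 with low daughter fertility, a log2 ratio of -0.79 (-0.85 to -0.73). All 6 elongator 3′ rows were lower with low bull fertility. Its 5′ fragment was near the detection limit at 19.6 with low bull and 13.1 with low daughter fertility.

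The selenocysteine tRNA, which reads a stop codon to insert selenocysteine into selenoproteins, had higher values with low bull fertility in all 4 of its rows with a mean of at least 10. Its 5′ fragment, tRNA-SeC-TCA-1, had 1338 with low bull and 915 with low daughter fertility, a log2 ratio of 0.55 (0.44 to 0.66). The 3′ fragment had 1004 with low bull and 653 with low daughter fertility, a ratio of 0.62. Fragments of neither end had 450 with low bull and 212 with low daughter fertility, a ratio of 1.08 (0.89 to 1.28). For the whole precursor tRNA-SeC-TCA-1-1 the values were 16.4 with low bull and 5.54 with low daughter fertility, which rest on 31 and 5 reads (interval 0.19 to 3.28). Together with leucine and serine tRNAs, selenocysteine tRNA forms the class with a long variable arm. Of the 33 families of that class among 5′, 3′ and neither-end fragments, 1 was at least 2-fold higher and 0 at least 2-fold lower, with a median of 0.05, against 4 and 6 of 109 and a median of -0.16 for the other isotypes.

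The leading glycine and glutamate 5′ fragments lay within 1.5-fold. In the most abundant family, tRNA-Gly-GCC-1 5′, the value was 209620 with low bull and 193762 with low daughter fertility, a log2 ratio of 0.11. tRNA-Gly-CCC-1 had 20244 with low bull and 24259 with low daughter fertility (-0.26). Glycine rows as a whole gave 34.7% of the tRNA 5′ signal with low bull and 33.7% with low daughter fertility. For tRNA-Glu-CTC-2 5′ the values were 81192 with low bull and 65525 with low daughter fertility, a ratio of 0.31 (0.30 to 0.32), and for tRNA-Glu-TTC-1 5′ they were 33228 and 33048 in the same groups. The glutamate share of the tRNA 5′ signal was 19.3% with low bull and 15.6% with low daughter fertility. Glutamate fragments of neither end were near equal, with tRNA-Glu-CTC-2 at 5596 with low bull and 4864 with low daughter fertility and tRNA-Glu-TTC-3 at 2002 and 2126. The 3′ fragment of tRNA-Glu-CTC-1 stood at 0.05 (-0.02 to 0.12), and its whole tRNA, the one abundant whole form, at 1540 with low bull and 1412 with low daughter fertility. The 3′ fragment of tRNA-Gly-CCC-7 had 11433 with low bull and 8635 with low daughter fertility, a log2 ratio of 0.40, and was the most abundant 3′ family.

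The glycine rows at least 2-fold higher with low bull fertility, 6 of 59, were all partial precursors, while 3 others, all 3′ fragments, were at least 2-fold lower. Partial precursors of tRNA-Gly-GCC-1-6 had 436 with low bull fertility (825 reads) and 160 with low daughter fertility (222 reads), a log2 ratio of 1.44 (1.23 to 1.66). The low daughter value was that of the library also labelled high bull fertility, and the high bull fertility column holds the same value. All 6 Gly-GCC partial precursor rows were higher with low bull fertility, by 0.81 to 2.13. The other family of this type, tRNA-Gly-TCC-1-4, had 29.1 with low bull and 11.3 with low daughter fertility. In all, 6 of 7 tRNA rows of partial precursors were at least 2-fold higher and 0 lower.

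The leading valine, histidine, leucine and alanine 5′ fragments had lower values with low bull fertility. tRNA-His-GTG-1 5′, next in abundance to tRNA-Gly-GCC-1, had 173326 with low bull and 202607 with low daughter fertility, a log2 ratio of -0.23. That ratio is about 0 when the groups are scaled by the median ratio of abundant tRNA rows, -0.23. tRNA-Val-CAC-2 had 19018 with low bull and 24293 with low daughter fertility (-0.35), and the Val-AAC and Val-TAC families stood at -0.34 each. Under the same scaling these were -0.13, -0.11 and -0.11, in that order. All 10 valine families of the 5′, 3′ and neither-end types had ratios below 0 as deposited, with a median of -0.35. The lowest of them was tRNA-Val-CAC-3, neither end, at 220 with low bull (246 reads) and 547 with low daughter fertility (1209 reads), a log2 ratio of -1.31 (-1.52 to -1.12). In tRNA-Leu-CAG-1 5′ the values were 17647 with low bull and 29532 with low daughter fertility, a log2 ratio of -0.74 (-0.76 to -0.72). The 5′ families of the other leucine anticodons were above 0, among them tRNA-Leu-AAG-1 5′ at 0.32 and tRNA-Leu-TAG-1 5′ at 0.30. Of the leucine 3′ rows 11 of 14 were below 0, and of those of neither end 15 of 18 were above 0.

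**Figure D3:**
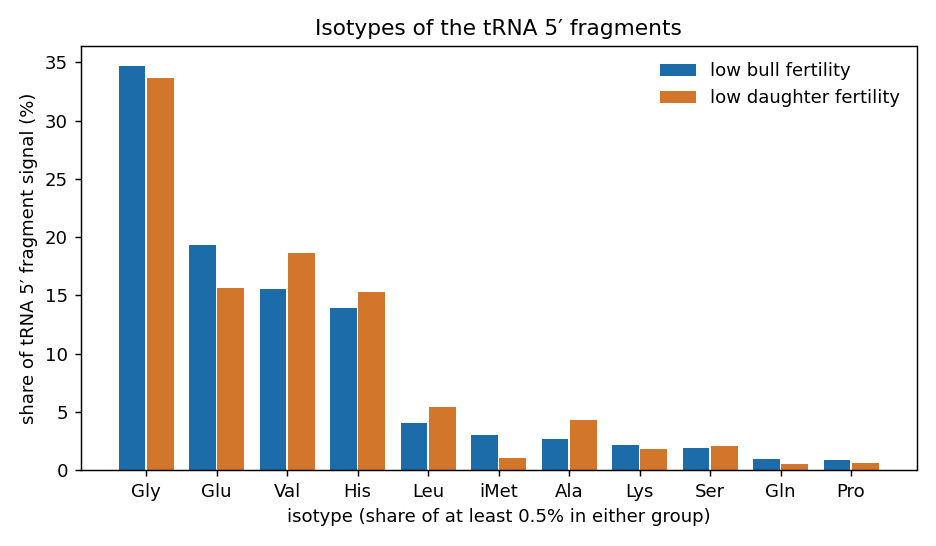
Share of the tRNA 5′ fragment signal (%, vertical axis) held by each isotype with at least 0.5% in either group, low bull fertility in blue and low daughter fertility in orange, 1 value per group and no error. Glutamate is 19.3% with low bull and 15.6% with low daughter fertility, valine 15.6% and 18.6%, and the initiator iMet 3.02% and 1.08% in the same groups.

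Alanine 5′ fragments and fragments of neither end lay below 0 in nearly all rows. Of 29 alanine 5′ rows with a mean of at least 10, 27 were lower with low bull fertility, as were 23 of 23 rows of neither end. The 5′ fragments of tRNA-Ala-TGC-9, tRNA-Ala-AGC-1 and tRNA-Ala-CGC-2 had nearly equal values and may count the same reads. For tRNA-Ala-TGC-9 they were 1395 with low bull and 2680 with low daughter fertility, a log2 ratio of -0.94 (-1.03 to -0.85). For tRNA-Ala-TGC-2, neither end, they were 210 with low bull and 422 with low daughter fertility, just short of 2-fold (interval -1.23 to -0.78). tRNA-Ala-CGC-1, neither end, had 81.4 with low bull and 149 with low daughter fertility (-1.25 to -0.51). The most abundant rows of the 3 alanine 3′ families stood at -0.06, -0.05 and 0.05, but of 12 alanine 3′ rows 2 were at least 2-fold higher and 4 at least 2-fold lower. Summed over rows, alanine gave 2.71% of the tRNA 5′ signal with low bull and 4.33% with low daughter fertility.

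Glutamine and proline rows differed in direction between fragment types, and arginine rows went both ways. For tRNA-Gln-CTG-1 5′ the values were 3280 with low bull and 1665 with low daughter fertility, a log2 ratio of 0.98 (0.91 to 1.04), just under 2-fold. The other glutamine 5′ family, tRNA-Gln-TTG-6, stood at -0.04, and of 18 glutamine 5′ rows 11 were above and 7 below 0. All 9 glutamine 3′ rows were below 0, with the families at -1.21 for tRNA-Gln-TTG-2 and -1.05 for tRNA-Gln-CTG-3, and so were 18 of 19 rows of neither end, with tRNA-Gln-CTG-1 at -0.77. Of 15 arginine families 10 were above 0, while arginine 3′ rows were 11 above and 11 below 0 and rows of neither end 17 and 9. tRNA-Arg-CCT-4, neither end, had 1112 with low bull and 465 with low daughter fertility, a ratio of 1.26 (1.11 to 1.41). That 2-fold difference is of its most abundant row alone, since the family stood at 0.51 as the sum of its rows and at 0.22 as their median ratio. tRNA-Arg-ACG-1, neither end, had 658 with low bull and 338 with low daughter fertility, a ratio of 0.96. Lower with low bull fertility among arginine fragments were tRNA-Arg-CCG-2 3′ at 3802 with low bull and 5159 with low daughter fertility, and tRNA-Arg-TCG-1 of neither end at 2535 and 3843. The most abundant arginine 5′ family, tRNA-Arg-TCT-9, stood at 0.02 (-0.07 to 0.11). All 5 proline 5′ rows were above 0, with tRNA-Pro-CGG-1 at 2936 with low bull and 1995 with low daughter fertility (0.56), while all 5 proline 3′ rows were below 0.

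**Figure D4:**
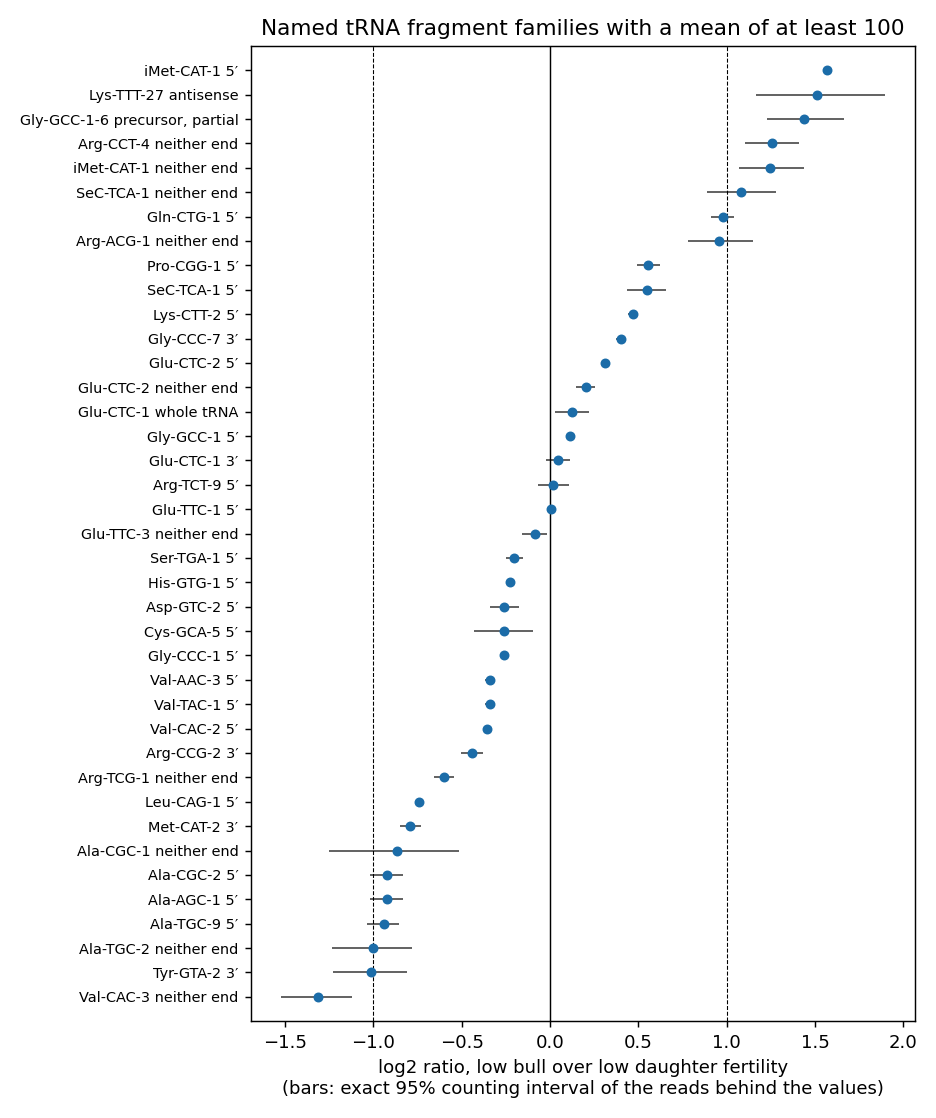
Log2 ratio of low bull over low daughter fertility (horizontal axis) for the named tRNA fragment families with a mean of at least 100, 1 family per line. Bars are exact 95% counting intervals of the reads behind the 2 group values and hold no spread between samples. Dashed lines mark 2-fold, and the 5′ initiator fragment lies highest at 1.57 and Val-CAC-3 of neither end lowest at -1.31.

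Most of the remaining named families lay within 2-fold, and those beyond it, tyrosine 3′ fragments apart, rested on few reads. Lysine was led by tRNA-Lys-CTT-2 5′, with 17683 with low bull and 12778 with low daughter fertility (0.47), although the median ratio of the rows of that family was -0.37. Serine 5′ fragments were led by tRNA-Ser-TGA-1 at 3231 with low bull and 3715 with low daughter fertility, and all 18 serine 5′ rows were lower as deposited. With the median ratio of abundant tRNA rows set to 1, the ratio of tRNA-Ser-TGA-1 5′ was 0.02. The 5′ fragment of tRNA-Asp-GTC-2 stood at -0.26 (-0.34 to -0.18) and that of tRNA-Cys-GCA-5 at -0.26 (-0.43 to -0.10), each at -0.03 under that scaling. The 3′ fragment of tRNA-Tyr-GTA-2 had 245 with low bull and 496 with low daughter fertility, a log2 ratio of -1.01 (-1.23 to -0.81) that is -0.85 with equal totals, and all 6 tyrosine 3′ rows were lower. For the 5′ fragment of tRNA-Sup-TTA-1, a suppressor tRNA whose anticodon pairs with a stop codon, 20 reads stood with low bull and 131 with low daughter fertility, a ratio of -1.45 (-2.25 to -0.80). Values under 100 in both groups were also those of tRNA-Phe-GAA-3 5′ (-0.45), tRNA-Ile-AAT-1 5′ (-0.86), tRNA-Tyr-GTA-1 5′ (0.03), tRNA-Und-NNN-4 5′ (0.57), and the whole forms of tRNA-Gly-GCC-1 (-0.10) and tRNA-Lys-CTT-2 (-0.68). Also past 2-fold on few reads were tRNA-Arg-TCG-1 5′ at 1.21 and tRNA-Ala-AGC-3, neither end, at -1.07.

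Antisense rows of tRNA entries reached a mean of 10 in 2 cases, both higher with low bull fertility. Antisense reads of tRNA-Lys-TTT-27 had 189 with low bull and 65.7 with low daughter fertility, a log2 ratio of 1.51 (1.17 to 1.90). Those of tRNA-Ile-AAT-3 had 67.9 with low bull and 12.2 with low daughter fertility, on 76 and 11 reads, a ratio of 2.39 (1.56 to 3.54). All other antisense rows of tRNA entries were below a mean of 10. Summed by isotype, most others were lower with low bull fertility, such as alanine at 18.2 with low bull and 36.8 with low daughter fertility. Some were higher, such as serine at 88.3 and 60.9 in the same groups. All antisense rows of tRNA entries together summed to 638 with low bull and 597 with low daughter fertility.

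A list of 11 families of 5′ fragments known to be abundant in mammalian sperm (those of Gly-GCC, Gly-CCC, Glu-CTC, Glu-TTC, His-GTG, Val-CAC, Val-AAC, Lys-CTT, Lys-TTT, Asp-GTC and the initiator) held 1 at least 2-fold higher (the initiator) and 0 at least 2-fold lower. Their median was -0.05, beside -0.10 over all families, and 5 were above and 6 below 0. Of the 44 families of 5′ fragments 2 were at least 2-fold higher and 1 lower, with a median of -0.02. Of 47 families of 3′ fragments 0 were at least 2-fold higher and 3 lower, with a median of -0.28, and 32 were below 0. Of 51 families of neither end 3 were higher and 2 lower, with a median of -0.09. Rows within a family did not always lie on the same side of 0. In 53 of 121 families with at least 2 such rows, some rows were above and some below 0. The families whose low daughter fertility value came from the library also labelled high bull fertility (82) had a median of -0.18. The 54 from the deepest low daughter fertility library had one of -0.05, and the 15 from the shallowest one of 0.07.

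Among rows with a mean of at least 10, tRNA-like entries were more often at least 2-fold apart than tRNA entries, but among abundant rows they were not. Of 3040 tRX rows with a mean of at least 10, 492 were at least 2-fold higher with low bull fertility and 266 at least 2-fold lower, which is 16.2% and 8.75%, against 4.02% and 6.47% of the 696 tRNA rows and 13.9% and 8.32% of all rows. Of the calls 64.9% were higher, or 74.5% with equal totals. Without the minimum mean, which lets in rows of 1 or a few reads, the direction turned, with 5237 higher and 8406 lower (38.4% higher). Among the 675 tRX rows averaging 100 or more, 20 were higher and 6 lower by this measure, against 11 and 16 of 348 tRNA rows. The most abundant tRX entries had 5′ fragments with values near each other and near those of tRNAs. tRX-Val-NNN-138 had 17769 with low bull and 23114 with low daughter fertility (-0.38), close to the 17809 and 22541 of tRNA-Val-AAC-3 in the same groups. tRX-Asp-NNN-23 stood at -0.41, tRX-Gly-NNN-252 at -0.39, tRX-Asp-NNN-36 at -0.39 and tRX-Ala-NNN-3 at -0.40, the last 3 with nearly equal values. The 1336 tRX rows of 5′ fragments had a median of 0.11, with 814 above 0, although their sum was lower with low bull fertility.

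Among the scarcer fragments, many of those named after cysteine were at least 2-fold higher with low bull fertility, and fewer were at least 2-fold lower. Of 905 cysteine tRX rows 288 were at least 2-fold higher and 117 at least 2-fold lower, with a median of 0.37. Over all 3040 tRX rows the numbers were 492 and 266, with a median of 0.13. For cysteine fragments of neither end they were 186 and 85 of 510 (36.5% and 16.7%), against 25.5% and 14.8% of all tRX rows of neither end. For antisense cysteine rows they were 58 and 9 of 127 (45.7% and 7.09%), with a median of 0.86, against 30.5% and 10.5% of all antisense tRX rows. Cysteine 5′ rows were near balanced, with 20 and 15 of 202 and a median of 0.06. Phenylalanine rows of neither end had 23 of 36 at least 2-fold higher and 2 lower, with a median of 1.05, and serine rows of neither end 11 and 2 of 26. Glutamate 5′ rows were near equal, with 2 and 1 of 150 and a median of -0.02. The 186 higher cysteine rows of neither end had a median group value of 20.5 with low bull and 5.43 with low daughter fertility. They were picked for being at least 2-fold higher, so the gap between these medians is largely set by that choice. In 160 of these 186 rows the low daughter value came from the deepest low daughter library, against 1090 of all 3040 tRX rows. The part of that library in the cysteine counts was not tested. Without the minimum mean, 38.4% of all tRX rows at least 2-fold apart were higher with low bull fertility. The cysteine rows alone were not tested without it. How reads matching several entries were counted is not known here, so these rows may share reads and are not independent.

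**Figure D5:**
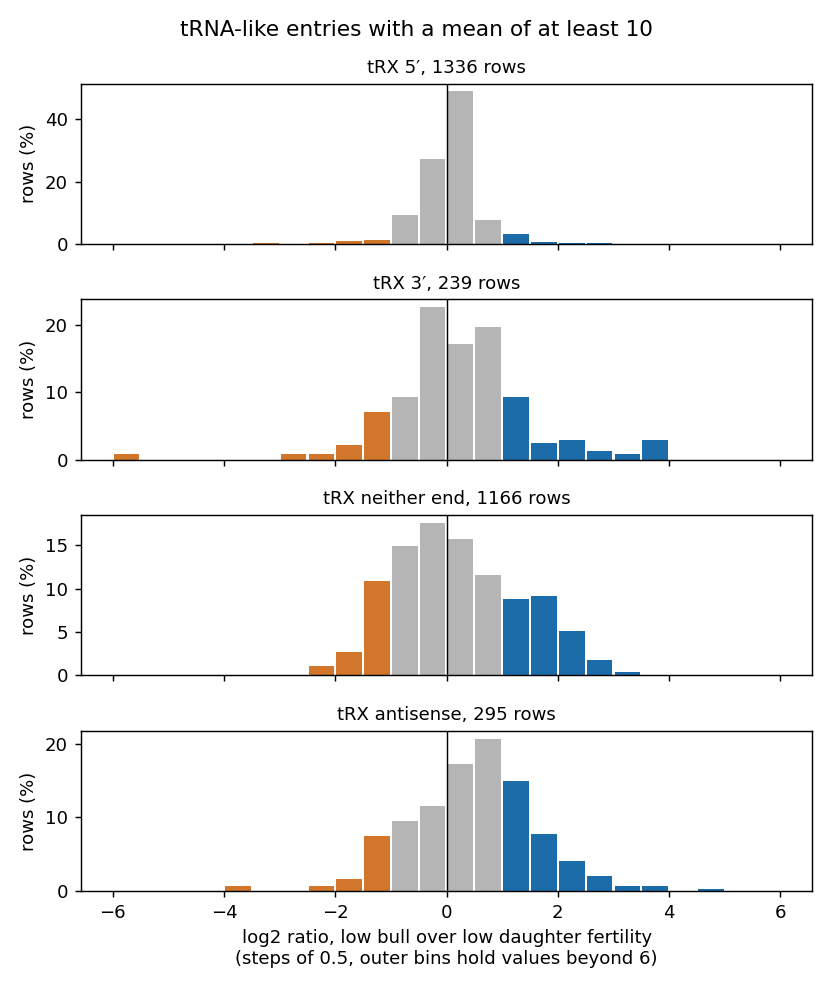
Distribution of log2 ratios of low bull over low daughter fertility (horizontal axis) for tRX rows with a mean of at least 10, as % of the rows of each fragment type (vertical axis), with at least 2-fold higher rows in blue and at least 2-fold lower rows in orange. The 1336 rows of 5′ fragments are narrow around 0.11, and the 295 antisense rows have a median of 0.55 with 90 of them at least 2-fold higher.

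The tRX rows with a mean of at least 100 that stood furthest apart were mixed. In tRX-Val-NNN-45 5′ the values were 244 with low bull fertility (462 reads) and 3.32 with low daughter fertility (3 reads), a log2 ratio of 5.83 (interval 4.64 to 8.48). The 3′ fragment of tRX-Gly-NNN-3098 had 931 with low bull and 121 with low daughter fertility (2.93), and the 5′ fragment of tRX-Ala-NNN-1 had 234 and 36.1 in the same groups (2.66). tRX-Ser-NNN-1106, neither end, had 1931 with low bull and 333 with low daughter fertility (2.53). Cysteine entries tRX-Cys-NNN-127178 and tRX-Cys-NNN-73829, neither end, had 263 and 255 with low bull fertility, against 43.9 and 45.3 with low daughter fertility. On the lower side, the 5′ fragment of tRX-Arg-NNN-709 had 68.8 with low bull and 384 with low daughter fertility, a log2 ratio of -2.46 (-2.85 to -2.13). Antisense reads of tRX-Und-NNN-6135 stood at -2.16, and tRX-Gln-NNN-1, neither end, at 159 with low bull and 490 with low daughter fertility (-1.62). The next were tRX-Thr-NNN-99 at -1.42 and tRX-Sup-NNN-3158 at -1.30, both of neither end, and the 5′ fragment of tRX-Leu-NNN-5 at -1.13, or -0.97 with equal totals. Apart from tRX-Sup-NNN-3158, the low daughter values of these lower rows came from the library also labelled high bull fertility. That library supplied the value in 1567 of 3040 tRX rows. For tRX-Und-NNN-6135 the high bull fertility column holds the same value. The implied standard errors of these rows in the authors' deposited table reached, for example, 1.18 for tRX-Ala-NNN-1 and 1.03 for tRX-Arg-NNN-709. The authors' log2 fold change of high over low bull fertility was 0.13 for tRX-Arg-NNN-709 (group values 405 and 68.8). For tRX-Und-NNN-6135 it was also 0.13 (204 and 44.9). Both fold changes were small beside the gap between the group values. For tRX-Gln-NNN-1 the fold change was larger, at 0.91 (337 and 159). The reason was not tested.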

How the data were processed

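Sperm small RNA came from a miRNeasy Mini Kit extraction and a NEBNext library preparation, according to the labels' protocols. Per the submitters' processing notes the tools included Trimmomatic (0.39) and DESeq2 (1.34.0), whose roles they do not state. Aligner, genome build, tRNA annotation and the treatment of reads with several matches: not given in the sources used here. The authors deposited 1 normalized signal per group and row, and for 2 other comparisons the authors' log2 fold change and p-value, per the file headers. No spread between samples can be had for low bull against low daughter fertility, so values are described. Standard errors were implied from the authors' log2 fold change and p. Reads were found as whole multiples (tolerance 1e-04) of 3 steps per column, and 0 rows were left without a step. The pseudocount was 1, a family or row needed a mean of at least 10, and a difference was counted from 2-fold.

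Named were the 12 most abundant families, the 8 highest and 8 lowest ratios with a mean of at least 100, the most abundant 5′ family of each isotype, the 3 most abundant of each type, the initiator, 5 abundant and 6 highest and 6 lowest tRX rows, and 3 rows at 0 per group. Other families given beside these were chosen after their values were seen. Members and lists were chosen with earlier results of these data known. Routines were tested on simulated data. Python 3.11.15, numpy 2.4.6, pandas 2.3.3, scipy 1.17.1 and matplotlib 3.10.9 were used. Total reads per library are not known here. No sequences or coordinates are given.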

Additional observations from a re-analysis of the deposited data

How the results depend on the processing

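No paired analysis was possible because each group has 1 deposited value per row. Leaving out a sample was impossible likewise. Counts of tRNA families at least 2-fold higher and lower with low bull fertility, 10 and 6 as reported, were 12 and 3 with equal totals, 12 and 2 with the median ratio of abundant tRNA rows set to 1, 6 and 2 at a mean of at least 100, and 22 and 18 without a filter. At 1.5-fold they were 18 and 30, and at 4-fold 1 and 0. The split of these calls moved with scaling, from 62.5% higher as deposited to 80.0% and 85.7% under the 2 scalings. The family median of -0.10 was 0.059 with equal totals, 0.125 with the median ratio, -0.17 at a mean of at least 100, -0.11 without a filter and -0.13 with families as sums of rows. tRX counts of 492 and 266 were 20 and 6 at a mean of at least 100, 5237 and 8406 without a filter, 767 and 552 at 1.5-fold and 138 and 30 at 4-fold, and the lower count was 156 with a pseudocount of 5. Their split was 64.9% higher as deposited, against 74.5% and 78.9% under the 2 scalings and 38.4% without a filter, where rows of 1 or a few reads enter. The cause of the other shifts was not tested. The share of tRNA 5′ fragments, 2.69 percentage points larger with low bull fertility, was 2.50 with identical rows counted once, 3.19 with each family once, and -0.0562 with tRX entries left out of the total. For tRX entries the difference of -3.07 was -2.89 and -3.14 under the first 2 of these. Of 68 named ratios 24 were past 2-fold, and 0 of those changed sign under the pseudocount, scaling and family settings, while 8 smaller ones did. That 0 was largely set in advance. A pseudocount cannot change a sign, and the 2 scalings only remove offsets of -0.16 and -0.23 log2 units. Only the family settings could turn a ratio past 2-fold, and they were not applied to tRX rows.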

Other observations

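Set beside the high fertility groups, the 10 tRNA families at least 2-fold higher with low bull than with low daughter fertility differed in which group stood apart. In 9 of them the low bull fertility value lay above both high fertility values, in 6 the low daughter value lay below both, and both held in 5. The families were picked by their low bull and low daughter values, so an outer place for 1 or the other is largely set by that choice. For the initiator 5′ fragment (tRNA-iMet-CAT-1) the values were 28743 with low bull, 9703 with low daughter, 9421 with high bull and 13256 for high daughter fertility. For tRNA-Ala-TGC-9 5′ they were 1395, 2680, 1293 and 1091 in that order, so there the low daughter fertility value was the one apart. The authors' log2 fold change of high over low daughter fertility was -1.25 for that alanine row, in the direction of its group values. For the initiator row it was -0.49, against the direction of its group values. Of the 6 lower families the low bull value lay below both high values in 4 and the low daughter value above both in 4.

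Among tRX rows at least 2-fold higher, the low daughter fertility value lay below both high values in 409 of 492 and the low bull value above both in 334. The cysteine entry tRX-Cys-NNN-127178, neither end, was an example of the first kind, at 263 with low bull, 43.9 with low daughter, 295 with high bull and 252 for high daughter fertility. These rows too were picked by their low bull and low daughter values, so an outer place for 1 or the other is largely set by that choice. The high bull fertility column shares 1 library with the low daughter column and 1 with the high daughter column, so these places are not independent and were not tested.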
